A study of Mus musculus with 14 samples.

Results

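Of the 92842 ATAC-seq peaks of the mouse blood progenitor list, 750 (0.808%, exact 95% interval 0.751 to 0.868) lay in DNA transposons. They were chosen by their annotation alone, as the peaks whose detailed annotation in the deposited list names a repeat of class DNA. ATAC-seq maps open chromatin through the cuts of the Tn5 transposase. The list merges 14 libraries, 2 for each of 7 sorted populations. These were 5 kinds of progenitor (MPP, multipotent, CMP, common myeloid, CLP, common lymphoid, GMP, granulocyte and macrophage, and MEP, megakaryocyte and erythrocyte) and the early B cells (ProB) and early T cells (ProT). All came from wild-type C57BL/6 mice of 8 to 12 weeks, with thymus as the source of ProT and bone marrow as that of the rest. Whether the libraries of 1 population stem from separate animals is not stated. The list holds no value per library or cell type, so a peak here was open in at least 1 population that cannot be named, and no level, fold change or replicate error could be computed. The errors below are 95% intervals that cover counting error only, and neighbouring peaks are not independent. The sorted populations could not be checked against marker levels for the same reason.

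DNA transposons move by excision and reinsertion: a transposase binds the terminal inverted repeats of the element, cuts it out and pastes it elsewhere. In mammals nearly all copies are immobile remnants, many of them short nonautonomous elements that kept the ends and lost the transposase gene. They are known as a source of regulatory sequence and of host genes, among them the RAG recombinase of developing lymphocytes, which descends from a transposase. The MER20 family of placental mammals has been studied as a source of regulatory elements in the uterus.

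The sequences come first. A RefSeq promoter window of assembly GRCm38.p6, which shares its chromosome coordinates with mm10, overlapped 5 of the 750 members. Of these, 4 are described here, each at the promoter of a long noncoding RNA gene that the list does not use as a nearest gene. They are shown because their bases could be read, and the stretches inside the peaks are shown 5' to 3' on the strand of the noncoding gene. Capitals mark matches to short blood factor motifs.
MER102b near Myb (chr10:21186765-21186993, plus strand): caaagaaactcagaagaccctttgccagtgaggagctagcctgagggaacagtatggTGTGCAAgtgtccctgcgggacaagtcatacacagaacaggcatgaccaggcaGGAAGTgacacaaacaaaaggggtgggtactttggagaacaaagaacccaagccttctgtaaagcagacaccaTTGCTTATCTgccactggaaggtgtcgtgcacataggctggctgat
MER81 near Cd274 (chr19:29384927-29385201, minus strand): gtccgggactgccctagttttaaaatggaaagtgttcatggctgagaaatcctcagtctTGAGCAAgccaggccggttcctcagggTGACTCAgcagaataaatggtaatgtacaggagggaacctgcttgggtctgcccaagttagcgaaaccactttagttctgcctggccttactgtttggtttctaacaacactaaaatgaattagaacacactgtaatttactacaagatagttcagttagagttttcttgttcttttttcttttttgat
Arthur1B near Bmp2 (chr2:133429809-133430049, minus strand): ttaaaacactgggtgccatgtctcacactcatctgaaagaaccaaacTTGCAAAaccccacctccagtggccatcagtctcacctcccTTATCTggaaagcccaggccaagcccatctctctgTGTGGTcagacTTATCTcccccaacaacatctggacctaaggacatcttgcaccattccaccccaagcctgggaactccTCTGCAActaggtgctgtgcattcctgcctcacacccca
MER5B near Osbpl3 (chr6:50381575-50381741, plus strand): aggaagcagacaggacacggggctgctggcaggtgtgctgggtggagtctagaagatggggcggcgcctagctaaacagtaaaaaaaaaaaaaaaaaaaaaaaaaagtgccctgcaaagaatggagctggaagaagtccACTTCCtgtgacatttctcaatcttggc

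The list gives 1 annotation per peak and not the bounds of the transposon copy, so how much of each stretch is transposon was not analysed here. The peak centre lies inside the promoter window for MER81 and outside it for the other 3. The motifs searched on both strands were AGATAA for GATA factors, GGAAGT for ETS factors, TGTGGT for RUNX, TGANTCA for AP-1, TTGCNNA for C/EBP, CAGCTG for E proteins, and AGGTGGC or AGGGGGC or AGATGGC for the core of CTCF. The MER102b stretch of 229 bases held 1 GATA match, 1 ETS match and 2 C/EBP matches, and its GATA match overlaps a C/EBP match by 3 bases. Of 32851 RefSeq promoters, 8.12% hold the GATA letters in the same stretch, 19.6% the ETS letters and 29.3% the C/EBP letters. Every such percent here counts promoters with at least 1 match, also where the stretch itself held 2. The MER81 stretch held 1 AP-1 match, which 7.35% of promoters have there, and 1 C/EBP match (35.0%). The Arthur1B stretch held 2 GATA matches (8.59%), 1 RUNX match (13.5%) and 2 C/EBP matches (30.7%). The MER5B stretch held 1 ETS match (15.8%). No CTCF or E protein letters were found in these stretches. GC content was 50.7% in the MER102b stretch, 41.8% in MER81, 52.7% in Arthur1B and 47.3% in MER5B, against a median of 52.7% over whole promoter windows.

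The genes beside these 4 members differ in kind. MER102b lay 26.0 kb upstream of Myb, a transcription factor that blood progenitors require, with its centre 70 bp from the start of the noncoding gene Gm33619. MER81 lay 17.7 kb downstream of the TSS of Cd274, which encodes the checkpoint ligand PD-L1, and 225 bp from the start of Gm36043. MER5B lay in intron 2 of 21 of Osbpl3, a lipid-binding protein gene, 1.01 kb from its TSS and 132 bp from the start of Gm52900. Arthur1B lay 122 kb upstream of Bmp2, a growth factor gene, and 58 bp from the start of Gm31851.

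The hAT superfamily, named after the hobo, Ac and Tam3 elements, held 546 members (72.8%, 69.5 to 76.0). Within it, hAT-Charlie had 455 (60.7%, 57.1 to 64.2), hAT-Tip100 had 64 (8.53%) and hAT-Blackjack 23 (3.07%). The Tc1/mariner superfamily held 194 (25.9%, 22.8 to 29.2), of which TcMar-Tigger, related to the pogo element, had 178 (23.7%), TcMar-Tc2 8 and TcMar-Mariner 4. The hAT total counts 3 members marked as uncertain, and the Tc1/mariner total counts 4. Only 10 members carried other names: 2 were MULE-MuDR, 3 PiggyBac (2 of them marked as uncertain) and 5 had no family. These shares describe open copies alone, because the number of copies of each family in the genome was not used here.

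In all, 123 named elements had at least 1 open copy, and 33 of them had exactly 1. MER20 led with 72 members (9.60%, 7.59 to 11.9), followed by URR1B with 62, URR1A with 42, MER5A with 39 and RCHARR1 with 32. All of these are hAT-Charlie elements. The leading Tigger elements were MER2 with 26 members and Tigger7 with 25, and Charlie1a had 22. A set of 5 names belongs to rodent repeats: URR1A, URR1B, RCHARR1, RMER30 and MMAR1, a grouping made after the counts were seen. Together they held 149 members (19.9%, 17.1 to 22.9), and the remaining 601 carried other names.

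**Figure D1:**
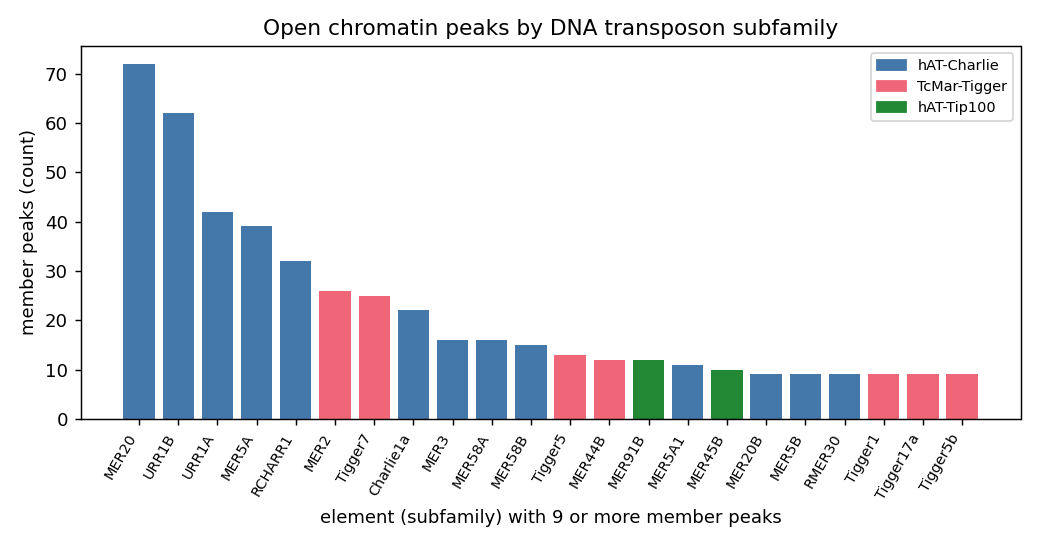
Number of member peaks (vertical axis, count) for each DNA transposon element with 9 or more, coloured by family. MER20 (72) and URR1B (62) stand highest, and the Tigger elements MER2 (26) and Tigger7 (25) rank behind 5 hAT-Charlie elements.

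The question of where these open copies lay was asked against peaks in the other repeat classes and against intron and intergenic peaks outside repeats. The peaks outside repeats leave out 1897 intron or intergenic peaks annotated at a CpG island. The effect of leaving them out was not tested. The annotation gives a repeat name to no peak in a promoter, exon or UTR (0 of 14822 repeat peaks), so peaks of the latter kinds are no fair reference. Introns held 382 of the 750 members (50.9%, 47.3 to 54.6) and intergenic sequence the other 368. That share was 13.3 percentage points above LTR peaks (37.7%, interval of the difference 9.48 to 17.0). Against SINE peaks (56.7%) the difference was -5.76 points (-9.66 to -1.87). Against LINE peaks (46.7%) it was 4.26 points higher (0.271 to 8.24). With 1 peak per nearest gene in each class, the one closest to the TSS, the interval held 0 (3.46, -0.701 to 7.61). Against peaks outside repeats (52.8%) the difference was -1.89 points (-5.49 to 1.69), and with 1 peak per nearest gene it was -7.18 (-10.9 to -3.44). That setting kept 714 of the 750 members, and it drops more peaks from a class with more peaks per gene. The effect of this unequal loss on the difference was not tested. Within introns, 130 of the 382 members (34.0%, 29.3 to 39.0) lay in a first intron, a share close to the 33.8% of intron peaks outside repeats.

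**Figure D2:**
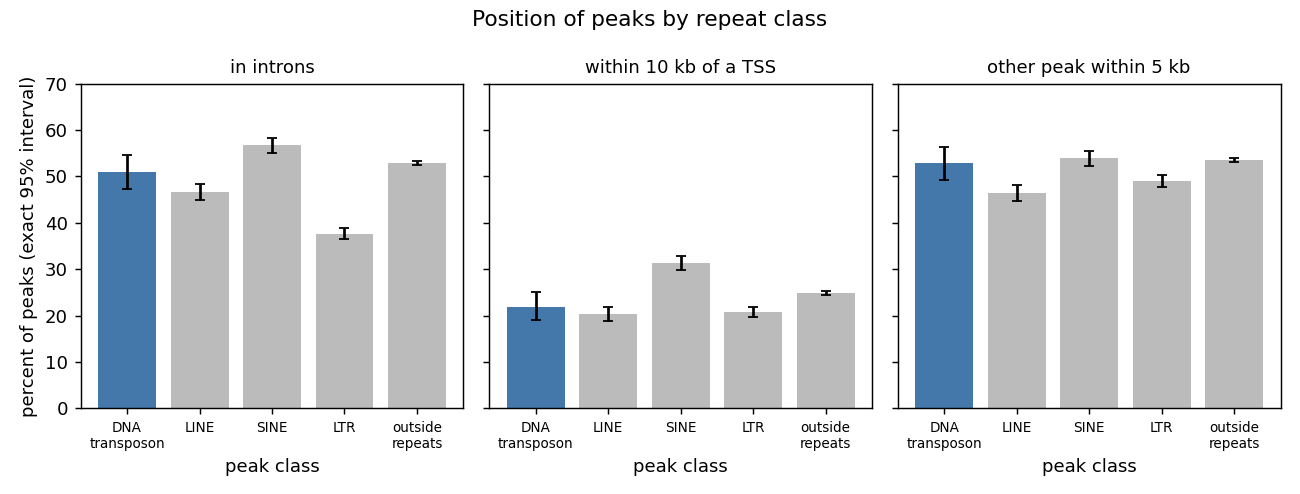
Percent of peaks (vertical axis) in introns, within 10 kb of a TSS and with another peak within 5 kb, for DNA transposon peaks (blue, n = 750) and 4 reference classes (grey). Error bars are exact 95% intervals, and DNA transposon peaks stand above LTR peaks in introns (50.9% against 37.7%) and below SINE peaks near a TSS (21.9% against 31.3%).

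Members were mostly far from the transcription starts used by the list, and each distance to a TSS given here is to those starts only. The median distance to the nearest TSS was 29.6 kb, with the middle 50% of members between 11.7 and 64.4 kb. Within 10 kb of a TSS lay 164 members (21.9%, 18.96 to 25.0), against 31.3% of SINE peaks, a difference of -9.46 points (-12.6 to -6.04). LINE peaks (20.3%, difference 1.55, -1.62 to 4.94), LTR peaks (20.8%, 1.12, -1.88 to 4.37) and peaks outside repeats (24.9%, -2.99, -5.82 to 0.127) were not told apart from them. Against LTR peaks the difference was 5.85 points (1.27 to 10.8) in introns alone and -4.18 points (-7.82 to 0.0991) in intergenic sequence alone. Within 5 kb the members fell below peaks outside repeats (-4.07 points, -5.94 to -1.78) and SINE peaks (-4.97, -7.14 to -2.47). At that distance they were not told apart from LINE peaks (0.873, -1.24 to 3.32) or LTR peaks (0.619, -1.37 to 2.98). Upstream of the nearest TSS lay 305 members (40.7%), against 41.3% of peaks outside repeats, 40.2% of SINE, 44.1% of LINE and 48.5% of LTR peaks. The most distant member, a copy of UCON29, was 923 kb from the TSS of Agbl1.

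**Figure D3:**
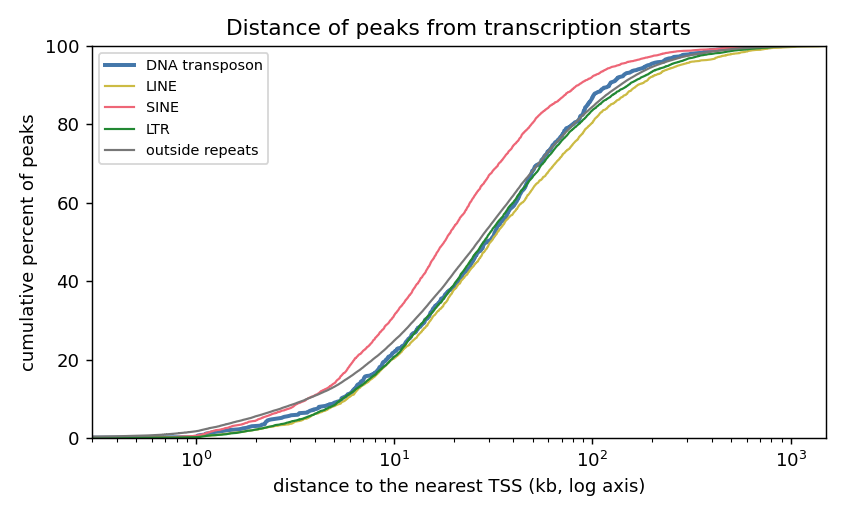
Cumulative percent of peaks (vertical axis) by distance to the nearest TSS in kb (log axis), for DNA transposon peaks (thick blue line) and 4 reference classes. The SINE curve runs to the left of the others (median 17.9 kb), and the DNA transposon curve (median 29.6 kb) runs close to those of LTR (28.2 kb) and LINE peaks (30.7 kb).

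Open copies had a close neighbour about as often as peaks over the whole list. Another peak of any kind had its centre within 5 kb of 396 members (52.8%, 49.2 to 56.4), against 53.1% of all peaks. The median distance from a member to the closest other peak was 4.58 kb. The share was 6.39 points above LINE peaks (46.4%, 2.40 to 10.4). It was 3.83 points above LTR peaks (49.0%, 0.0385 to 7.59), a difference whose interval held 0 when the distance was set to 2 kb (2.75, -0.445 to 6.16) or 20 kb (1.77, -0.761 to 3.94). SINE peaks (53.9%, difference -1.14, -5.05 to 2.75) and peaks outside repeats (53.5%, -0.658, -4.26 to 2.91) were not told apart from the members at 5 kb. In all, 12 differences between classes were computed. With intervals widened to 99.6% for 12 comparisons, 4 excluded 0: intron share against SINE and LTR peaks, the share within 10 kb of a TSS against SINE peaks, and the share with a close neighbour against LINE peaks.

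The distances between members were also read, without a reference set of the same size. Spacing depends on the number of peaks, so it is not given as a trait of the members. The median distance between neighbouring members was 1.60 Mb, and 4 neighbouring pairs were within 10 kb. In the closest, MER44D and MER5A lay 1.86 kb apart in intron 1 of 15 of Pls1, an actin-bundling protein gene (chromosome 9, 95832859 to 95833357 and 95834718 to 95835216). A pair of Tigger1 peaks lay 2.01 kb apart, 71.6 and 73.6 kb downstream of the TSS of Sdc1, the gene of the plasma cell surface proteoglycan syndecan 1 (chromosome 12, 8842716 to 8843214 and 8844722 to 8845220). A pair of URR1B peaks lay 2.56 kb apart in intron 3 of 20 of Ano6, a phospholipid scramblase gene (chromosome 15, 95890249 to 95890747 and 95892811 to 95893309). Whether such a pair belongs to 1 copy was not tested. MER2 and MER20 lay 4.35 kb apart in intron 7 of 14 of Prep, a peptidase gene (chromosome 10, 45109977 to 45110475 and 45114327 to 45114825).

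The 2 largest families were not told apart in intron share or distance to a TSS. Introns held 54.1% of hAT-Charlie members (49.4 to 58.7) and 51.7% of TcMar-Tigger members (44.1 to 59.2), a difference of 2.38 points (-6.18 to 11.0). Within 10 kb of a TSS lay 21.5% and 21.3%, a difference of 0.190 points (-7.29 to 6.90). Another peak stood within 5 kb of 51.2% of hAT-Charlie and 60.1% of TcMar-Tigger members, a difference of -8.90 points (-17.2 to -0.266), which was added to the planned comparisons. In the smaller families introns held 22 of 64 hAT-Tip100 members (34.4%, 22.9 to 47.3) and 7 of 23 hAT-Blackjack members (30.4%, 13.2 to 52.9).

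MER20 stood apart among the elements. Of its 72 members, 52 (72.2%, 60.4 to 82.1) lay in introns, against 330 of the 678 other members (48.7%), a difference of 23.5 points (11.7 to 33.3). This comparison of elements was added after the values had been seen, over 27 differences (8 elements and the rodent names, with 3 measures each), and it was the only one whose interval excluded 0 when widened to 99.8% (4.32 to 37.8). The 72 MER20 peaks had 72 different nearest genes on 19 chromosomes, so no single locus carried the count, and 16 of the 52 intron peaks lay in a first intron. The other 7 elements with at least 20 members ranged from 40% of peaks in introns (Tigger7) to 65.4% (MER2). URR1B had another peak within 5 kb in 24 of 62 cases (38.7%), a difference of -15.4 points from the other members (-27.1 to -2.37), and for the rodent names together the difference was -9.78 points (-18.5 to -0.820). Both of these intervals held 0 when widened.

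**Figure D4:**
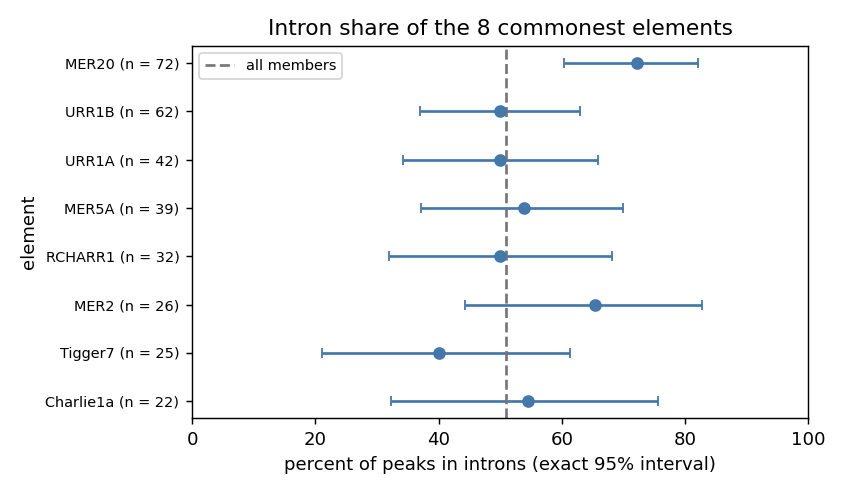
Percent of peaks in introns (horizontal axis) for the 8 elements with at least 20 members, with exact 95% intervals and the number of peaks in brackets. The dashed line is the share over all members (50.9%), and MER20 (72.2%) is the element whose interval lies wholly to its right.

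Within 10 kb of a TSS lay 12 of the 72 MER20 members (16.7%), against 22.4% of the other members, a difference of -5.75 points (-13.4 to 4.92). Among the 8 members closest to a TSS used by the list, 4 were MER20, 6 were hAT-Charlie and 7 lay in introns. A MER20 peak lay 0.279 kb into Zkscan16, a zinc finger gene (chromosome 4, 58943658 to 58944156, intron 1 of 5), and a second 1.05 kb into Zfp663, also a zinc finger gene (chromosome 2, 165360819 to 165361317, intron 1 of 4). Another lay 0.974 kb from the TSS of Prmt10, an arginine methyltransferase gene now named Prmt9 (chromosome 8, 77550122 to 77550620). The last lay in intron 1 of 5 of Mxi1, an antagonist of Myc (chromosome 19, 53328040 to 53328538, 1.12 kb upstream of the TSS used by the list). Some other MER20 peaks were picked, after their values were seen, because their nearest genes have a blood cell function. One, given to the death-promoting Bcl2 relative gene Bcl2l11, lay 25.1 kb upstream of it in an intron of Acoxl. Another, given to Hhex, a homeobox gene of early blood development, lay 15.0 kb upstream of it in Kif11. A MER20 peak 7.75 kb downstream of the TSS of Cd244, a receptor of natural killer cells, lay in that gene. Others of the 72 MER20 peaks were nearest to genes such as Olfr1318, Tdrd12, Slc12a3 and Wdr72, so these picks show no blood theme.

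Beyond MER20, the members closest to a TSS were of several families. MER5B in Osbpl3 is shown above. A copy of hAT-N1_Mam lay in intron 1 of the noncoding gene 9430069I07Rik, 1.02 kb from its TSS (chromosome 15, 34356603 to 34357101). A MER20B copy lay 1.02 kb upstream of Gabbr1, a GABA receptor gene (chromosome 17, 37044697 to 37045195), and a Tigger16a copy 1.10 kb into Tmem50b, a membrane protein gene (chromosome 16, 91596327 to 91596825). No more than 2 members (0.267%) were within 1 kb of a TSS used by the list, against 1.78% of intron and intergenic peaks outside repeats. The members shown with sequences are not among these 2. Their centres lay 58 to 225 bp from the starts of noncoding genes that the list does not use. The other repeat classes were low as well, with 0.245% of LTR, 0.393% of LINE and 0.650% of SINE peaks.

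The 750 members were nearest to 714 genes, and no gene had more than 3. Besides Sdc1, Ano6 and Prep, each with 3, these were Csnk1g3, a casein kinase gene, and Chst11, which sulfates chondroitin. Sdc1 had 8 peaks in all, Csnk1g3 20, Ano6 22, Prep 25 and Chst11 31. The Sdc1 member outside the close pair was a URR1A copy in its intron 1 (8787074 to 8787572), 15.9 kb from the TSS. A further 26 genes had 2 members. Those picked here for a known role include Myb, Maf, a leucine zipper factor gene, and Cited2, a coactivator that stem cells require. Zfp521, a zinc finger gene of early progenitors, and Bcor, a corepressor gene, were also picked. So were Dusp6, a phosphatase of the MAP kinase ERK, and Elmo1, a regulator of Rac signalling. Others of the 26 were Nyap2, Rfx4, Gm17746, Gm6260, Cacul1, Plekhb2, Nup210, Syf2 and Sos2. The second Myb member was MER45B, 63.5 kb upstream (chromosome 10, 21224233 to 21224731). In Zfp521, MER2 and MER5B lay 35.5 and 104 kb downstream of the TSS in intron 3 of 7. In Elmo1, MER2 and Tigger13a lay 49.7 and 46.8 kb downstream of 2 different TSSs.

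The nearest genes of the members were compared with those of other peaks in number of peaks and in type. The median number of peaks of the nearest gene was 9 over members, as over all intron and intergenic peaks. For 14 genes the only peak was a member, among them Klb, the coreceptor of an endocrine growth factor (Charlie21a), Tdrd12, a germline gene (MER20), and the olfactory receptor gene Olfr1318 (MER20). The nearest gene coded for protein for 85.6% of members and was a noncoding RNA gene for 13.7%, against 85.1% and 13.9% of all intron and intergenic peaks. In introns the host gene was not the gene with the nearest TSS for 97 of 379 members (25.6%, 21.3 to 30.3). Of the 368 intergenic members, 51 (13.9%, 10.5 to 17.8) lay inside a long noncoding RNA gene of RefSeq, against 15.4% of intergenic peaks outside repeats.

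Members at genes of the blood lineages were few and spread over the lists. In 7 lists of stem, lymphoid, B cell, T cell, granulocyte and macrophage, erythroid and megakaryocyte genes (129 different genes), 12 of 1132 intron and intergenic peaks were members (1.06%, 0.549 to 1.84), against 0.994% for genes in no list. The lists give no test here. The stem and multipotent progenitor list had 5 of 266 (1.88%, 0.613 to 4.33). They were the pair at Myb, MER91A 16.7 kb upstream of Lmo2, a partner of Tal1 (chromosome 2, 103941007 to 103941505), and Tigger16a 91.6 kb upstream of Cd34, a progenitor surface marker (chromosome 1, 194846942 to 194847440). The fifth was MER20 given to Lyl1, a helix-loop-helix factor gene, 24.6 kb away in intron 6 of Nfix (chromosome 8, 84725843 to 84726341).

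Of the committed lineages, B cell genes had 2 members of 227 peaks (0.881%). Charlie1a lay 19.4 kb upstream of the TSS of Bach2, a repressor of plasma cell fate (chromosome 4, 32397785 to 32398283), and MER5A 185 kb downstream of that of Foxp1, a forkhead factor gene (chromosome 6, 98842876 to 98843374). T cell genes had 2 of 130 (1.54%): Tigger13a 37.0 kb upstream of the costimulatory receptor gene Cd28 (chromosome 1, 60709183 to 60709681) and MER58B 48.6 kb upstream of Themis, a gene of thymocyte selection (chromosome 10, 28619517 to 28620015). Megakaryocyte genes had 2 of 135 (1.48%). One was MER121 in intron 1 of Fli1, an ETS factor of megakaryocytes (chromosome 9, 32530914 to 32531412, 10.3 kb from the TSS). The other was Tigger17a in intron 2 of Rab27b, a gene of platelet granule release (17.1 kb from the TSS). The single granulocyte and macrophage member of 110 peaks (0.909%) was MER63A, 40.7 kb downstream of the TSS of Irf8, a factor of monocyte fate (chromosome 8, 120779055 to 120779553).

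Several lists had none. For these, the share that a count of 0 allows is given as 3 counts of the total, not as the exact interval used above. The lymphoid list had 0 of 197 peaks, which allows a share of up to 1.52% (exact 95% upper limit 1.86%), and the erythroid list 0 of 107 (up to 2.80%), both limits above the 0.993% of all intron and intergenic peaks. The same held for housekeeping genes (0 of 73, up to 4.11%), macrophage and dendritic genes (0 of 67, 4.48%), endothelial and stromal genes (0 of 62, 4.84%) and natural killer genes (0 of 20, 15%). Genes of unrelated tissues had 1 of 62 (1.61%), a MER5A copy 70.4 kb upstream of Neurod1, a neuronal factor gene. A lower share in these lists was not detectable at this number of peaks.

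Members were spread over all autosomes and the X chromosome. Per 1000 intron and intergenic peaks, the autosomes held 9.95 ± 1.75 members (SD, n = 19 chromosomes), from 6.42 on chromosome 14 to 13.5 on chromosome 5. The X chromosome held 11.8 (6.89 to 18.8), within the range of the autosomes. Chromosome Y had no member among 9 such peaks.

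**Figure D5:**
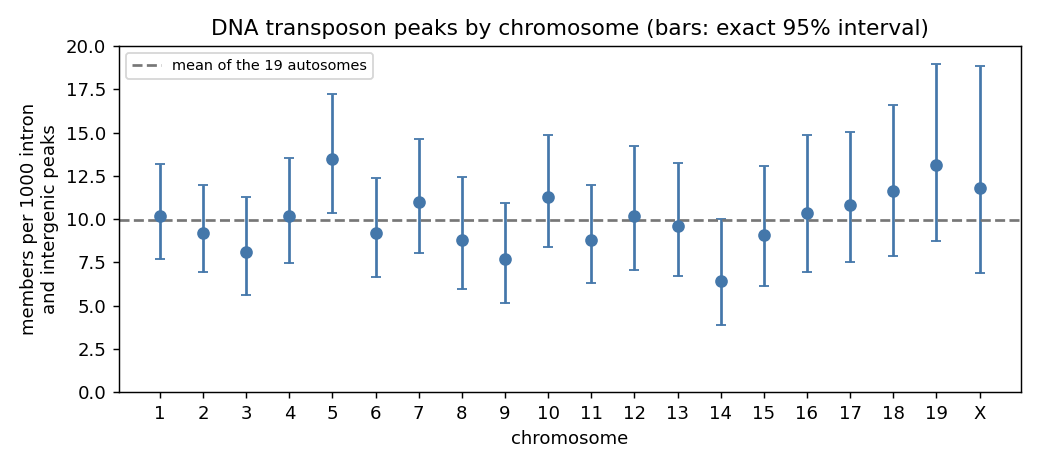
Members per 1000 intron and intergenic peaks (vertical axis) on each autosome and the X chromosome, with exact 95% intervals. The dashed line is the autosomal mean (9.95), and chromosomes 14 (6.42) and 5 (13.5) are the lowest and the highest.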

How the data were processed

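Open chromatin was assayed by ATAC-seq in 14 libraries of 7 mouse blood progenitor populations. The authors deposited 1 merged list of 92842 peaks of 499 bp. Per the file header it was annotated with annotatePeaks on mm10. HOMER 4.10.2 is named in the submitters' processing notes. How reads were aligned and how peaks were called and merged is not given in the sources used. The deposited peak score is 0 in every row and was not used. Depth is unknown.

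Members were the rows whose detailed annotation holds the class DNA. The 2 peaks of the uncertain class DNA? and the 2 Helitron peaks were not counted. Shares have exact (Clopper-Pearson) 95% intervals and differences of shares Newcombe 95% intervals, checked on simulated data (Python 3.11.15, scipy 1.17.1). Gaps are distances between peak centres. Host genes and promoter sequences came from RefSeq tables of GRCm38.p6, in which 748 of 750 nearest genes were matched. In 1685 overlapping promoter windows on opposite strands the letters were equal in 1685. The named items were elements with at least 20 members, the genes with the most members, the 8 members closest to a TSS, list members and the closest pairs. Members, gene lists and tests were chosen with earlier results of these data known. No genome was used, so GC content and motifs were not computed over the members as planned, only in promoter windows that overlap members, 1 of which is not reported here.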

Additional observations from a re-analysis of the deposited data

How the results depend on the processing

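Of 57 alternative values, 40 kept their direction or range and their side of the threshold, 3 differences no longer excluded 0, 6 newly did, 4 changed sign and 4 values moved beyond their interval or SD. The 4 changes of sign had intervals that held 0 in both settings: within 10 kb of a TSS, intergenic peaks alone gave -1.85 points against LINE peaks and -4.18 against LTR peaks (-7.82 to 0.0991), members over 1 kb from a TSS gave -0.156 for hAT-Charlie against TcMar-Tigger, and a neighbour within 20 kb gave 0.249 against peaks outside repeats. The members made up 0.993% of intron and intergenic peaks, and 0.953% of sites once peaks closer than 2 kb were merged. With all peaks as the denominator the autosomal mean was 8.11 members per 1000. With 1 peak per nearest gene, the one closest to the TSS, the intron share was 3.46 points above LINE peaks (no longer excluding 0). From peaks outside repeats it then differed by -7.18 points (newly excluding 0), in a setting that thins the classes unequally. The difference from LTR peaks in close neighbours no longer excluded 0 at 2 kb (2.75) and 20 kb (1.77), and that from SINE peaks did at 20 kb (-2.42). Within 50 kb of a TSS the difference from LINE peaks was 4.55 points, and within 5 kb that from peaks outside repeats was -4.07. In introns alone the share within 10 kb was 5.85 points above LTR peaks, the opposite direction to the intergenic value above. In intergenic peaks alone it was -4.28 points from peaks outside repeats. The unrelated tissue list had no member within 50 kb. The causes were not tested.

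The alternative of motifs in the centre of each peak was not run, because no genome was used. No paired analysis was possible because the list holds no values per library, and for the same reason no library was left out. The 750 members limit the differences between elements, most of which have intervals wider than 20 points.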
